A study of Mus musculus with 10 samples.

Results

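The genes of the endoplasmic reticulum (ER) folding system and of the unfolded protein response (UPR) were examined in embryonic stem cell (ESC) lines from mothers on a low or a normal protein diet. The 10 genes were listed by symbol as ER chaperones, ERAD components and UPR sensors, with earlier results of these data known: Hspa5, Hsp90b1, Calr, Pdia4, Dnajb9, Herpud1, Sel1l, Xbp1, Atf6 and Ern1. Each had 1 entry among the 20206 genes of the deposited table, and all 10 passed the filter on low values that left 14354 genes for testing. RNA sequencing covered 10 wild-type C57BL/6 ESC lines labelled male, 5 derived after an isocaloric low protein diet of the mother (LPD, 9% casein) and 5 derived after a normal protein diet (NPD, 18% casein). Dams aged 7 to 9 weeks received their diet from the morning of the mating plug to embryonic day 3.5. The blastocysts were then grown out on feeder fibroblasts, and both groups of lines shared the same culture, so the diets had ended before any of the cells sequenced here were derived. Each line came from a single embryo of a different mother, so n counts lines per diet, each standing for 1 embryo and 1 mother. The lines were expanded over several passages and grown without fibroblasts for RNA extraction. Line numbers are those of the labels: LPD lines 1, 4, 6, 20, 40 and NPD lines 8, 15, 21, 36, 51.

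Proteins that enter the secretory pathway fold in the lumen of the ER with the help of chaperones and disulfide isomerases, and those that fail to fold are returned to the cytosol and destroyed by the proteasome, a route called ER-associated degradation (ERAD). When unfolded proteins accumulate, membrane sensors start the UPR: Ire1 (encoded by Ern1) splices the Xbp1 mRNA in the cytosol, Atf6 is cut free from the membrane in the Golgi, and Perk (encoded by Eif2ak3) phosphorylates eIF2alpha, which lowers general translation while that of Atf4 rises. The spliced Xbp1 protein and the Atf6 fragment are transcription factors that induce chaperone and ERAD genes. Because splicing and cleavage act after transcription, gene totals such as those measured here do not show whether Ire1 or Atf6 was active, and spliced and unspliced Xbp1 mRNA are not separated in them.

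The promoters of these genes carry some of the textbook elements of ER stress control, and 4 of them are shown because Herpud1 was the gene that differed between diets while Hspa5, Hsp90b1 and Calr had the highest levels among the 10. RefSeq (GRCm38.p6) gave a promoter for 9 of the 10 genes, all but Atf6. The searches covered 300 bases, from 250 before the start site to 50 after it, on both strands. The ER stress response element (ERSE) was searched as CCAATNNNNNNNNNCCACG, the shorter ERSE-II as ATTGGNCCACG, the UPR element as TGACGTGG and the C/EBP-ATF element, bound by Atf4 with its partners, as TGATGCAA. The 250 bases before the start are printed, 5′ to 3′ on the strand of the gene, with capitals for every match to these 4 motifs.
Herpud1: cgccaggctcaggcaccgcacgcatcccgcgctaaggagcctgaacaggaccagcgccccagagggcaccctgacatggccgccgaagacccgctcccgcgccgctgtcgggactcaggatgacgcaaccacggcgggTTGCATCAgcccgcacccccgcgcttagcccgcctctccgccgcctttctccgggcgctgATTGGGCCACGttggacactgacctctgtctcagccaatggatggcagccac
Hspa5: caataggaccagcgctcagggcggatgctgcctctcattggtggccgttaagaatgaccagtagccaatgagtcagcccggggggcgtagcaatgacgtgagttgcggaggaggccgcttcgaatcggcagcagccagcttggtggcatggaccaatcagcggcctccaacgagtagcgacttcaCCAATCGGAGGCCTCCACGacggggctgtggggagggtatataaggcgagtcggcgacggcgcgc
Hsp90b1: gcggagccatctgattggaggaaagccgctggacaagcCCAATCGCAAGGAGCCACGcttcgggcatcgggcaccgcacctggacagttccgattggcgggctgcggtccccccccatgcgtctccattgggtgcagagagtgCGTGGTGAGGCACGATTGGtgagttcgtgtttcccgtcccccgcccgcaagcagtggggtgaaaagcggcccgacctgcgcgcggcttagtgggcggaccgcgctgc
Calr: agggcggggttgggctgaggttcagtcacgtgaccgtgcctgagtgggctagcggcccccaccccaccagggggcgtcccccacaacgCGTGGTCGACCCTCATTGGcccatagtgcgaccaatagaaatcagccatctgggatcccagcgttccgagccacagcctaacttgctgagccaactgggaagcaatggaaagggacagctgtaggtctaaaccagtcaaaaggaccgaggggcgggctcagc
These stretches lie at chr8:94386179-94386428 on the + strand for Herpud1, chr2:34771840-34772089 on the + strand for Hspa5, chr10:86705445-86705694 on the − strand for Hsp90b1 and chr8:84846932-84847181 on the − strand for Calr. In the Herpud1 promoter the ERSE-II stood at positions −52 to −42 and the C/EBP-ATF element, read on the opposite strand as TTGCATCA, at −112 to −105, counting the base before the start site as −1. Hspa5 had an ERSE at −65 to −47 and Calr one on the opposite strand at −162 to −144. Hsp90b1 had 2, at −212 to −194 and, on the opposite strand, at −107 to −89. Among all 32851 RefSeq mouse promoters of this length, 0.119% held an ERSE, 0.0365% an ERSE-II, 0.676% a UPR element and 0.895% a C/EBP-ATF element. The ERSE matched in 3 of the 9 promoters, the ERSE-II and the C/EBP-ATF element in 1 each, both in Herpud1, and the UPR element in 0 of the 9. A match is a run of letters in this window and was not tested for binding. Only the spellings given were searched, so an element spelled otherwise would not be marked or counted.

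The lines had the RNA of ESCs, with summed values of 10 pluripotency markers between 106500 and 136959 in LPD lines and between 100676 and 136913 in NPD lines. None of the 10 differed at an unadjusted p under 0.05. Depth was estimated from the value that 1 read is worth in genes with a single annotated transcript and ranged from 5842145 to 24087740 read equivalents in LPD lines and from 20424642 to 23192830 in NPD lines. LPD line 4 was the shallowest, and LPD lines 4, 6 and 40 all lay below the NPD range. The Y-linked Ddx3y stood at 7.70 in NPD line 15 and 174 in LPD line 4 against 1110 to 1493 in the other 8 lines, and genes of the X chromosome in NPD line 15 had a median 0.49 above the other lines on the log2 scale, so these lines stood apart from their male label. Summed values of 12 feeder fibroblast markers were highest in NPD line 15 (7321), LPD line 6 (4585) and NPD line 8 (2765) and lay between 413 and 1375 in the other 7 lines. Dcn, Lum and Twist2 were at 0 in at least 1 line of both diets. Because cultures were sequenced in bulk, fewer cells of a type and less RNA per cell cannot be told apart.

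Of the 10 genes, Herpud1 was the only one whose value differed between diets at an unadjusted p under 0.05, and it was higher in LPD lines. The other 9 did not pass that limit. Over all 14354 genes tested, 5.02% passed it in either direction and 2.84% passed it on the higher side. Of those that passed, 56.6% were higher in LPD lines, a share that was 40.2% when the lines were rescaled to equal totals, where Herpud1 kept a log2 fold change of 0.65. After Benjamini-Hochberg adjustment of the limma p-values no gene passed 0.1 (0 of 14354, against 721 at an unadjusted p under 0.05), and the smallest adjusted p of any gene was 0.207. Of the log2 fold changes of the 10 genes, 7 were above 0 and 3 below, with a median of 0.10, whereas 50.5% of all genes tested were above 0 with a median of 0.002.

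**Figure D1:**
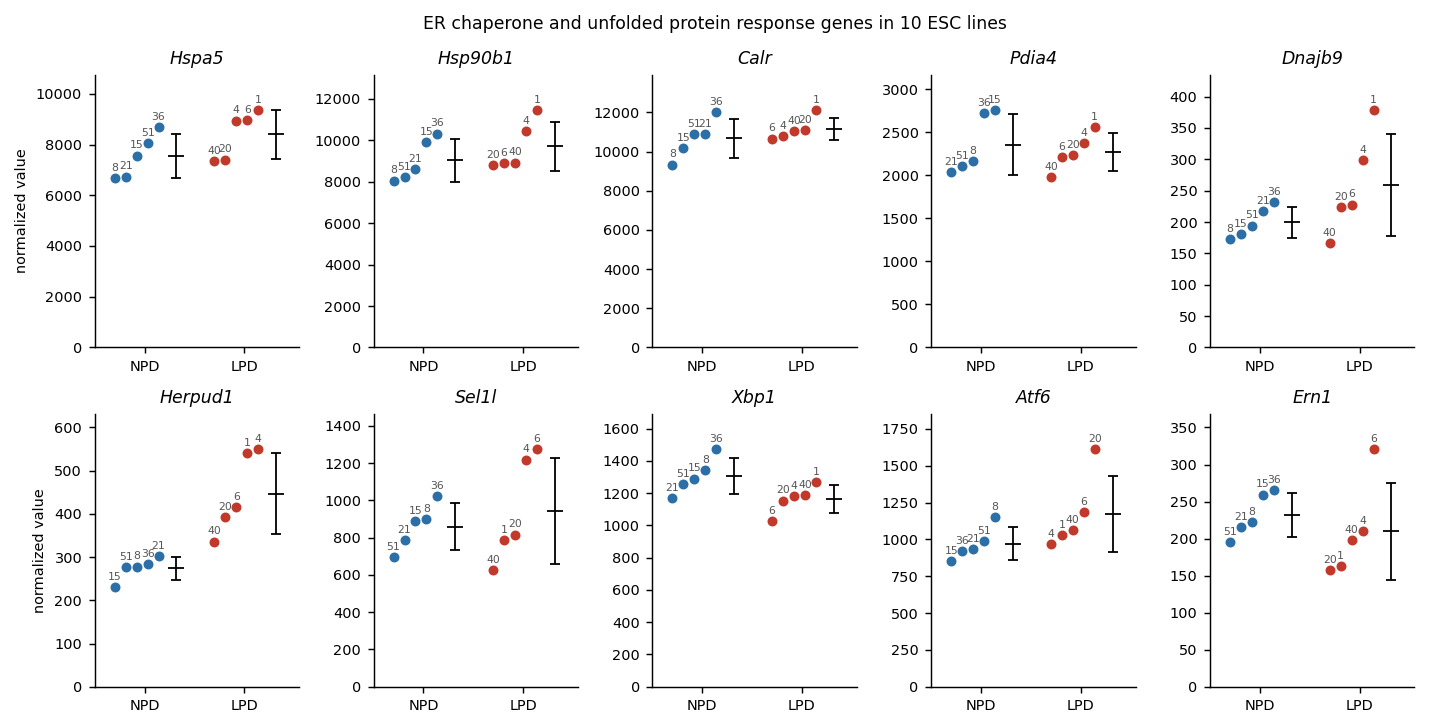
Normalized value (y axis, linear, from 0) of each of the 10 genes in the 5 NPD lines (blue) and 5 LPD lines (red); small numbers are line numbers, points are ordered by value within a diet, and bars beside them show the mean ± SD of 5 lines. Herpud1 is the only gene whose diets do not overlap, with 231 to 302 in NPD lines and 336 to 549 in LPD lines.

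Herpud1 (ENSMUSG00000031770, chr8:94386438-94395377 on the + strand, GRCm38) encodes a ubiquitin-like membrane protein of the ER that assists the Hrd1 ubiquitin ligase complex in ERAD and is a classical UPR target. Its normalized values were 541, 549, 416, 393 and 336 in LPD lines 1, 4, 6, 20 and 40. In NPD lines 8, 15, 21, 36 and 51 they were 278, 231, 302, 284 and 277. The lowest LPD line, 40, was above the highest NPD line, 21. Such a separation on the higher side was seen in 0.523% of all genes tested, and in 1.02% in either direction. The means were 447 ± 94.2 and 274 ± 26.3 (SD, n = 5 each), so the LPD lines were also spread more widely. The log2 fold change was 0.68 (SE 0.15, 95% interval 0.36 to 1.01), a 1.60-fold difference on the scale of log2(value + 1). The exact two-sided permutation test over every assignment of 5 and 5 lines gave p = 0.00794, the smallest p that 5 against 5 lines allow. limma gave an unadjusted p of 0.000617 and a Benjamini-Hochberg adjusted p of 0.422. The study itself singled out a transcript of this gene on these lines, so its difference is not independent evidence.

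The Herpud1 difference was not set by 1 line or by 1 way of scaling. With each line left out in turn its log2 fold change lay between 0.60 and 0.78. It was 0.54 without LPD line 4 and NPD line 15 together, the pair that stood apart from the label, and 0.63 without the 3 lines with most feeder marker RNA. Depth as a covariate gave 0.63. Its unadjusted limma p was under 0.05 in 22 of 22 alternatives, whereas its adjusted p ran from 0.0812 without LPD line 40, the lowest LPD line, to 0.999 without the 3 feeder-rich lines.

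**Figure D2:**
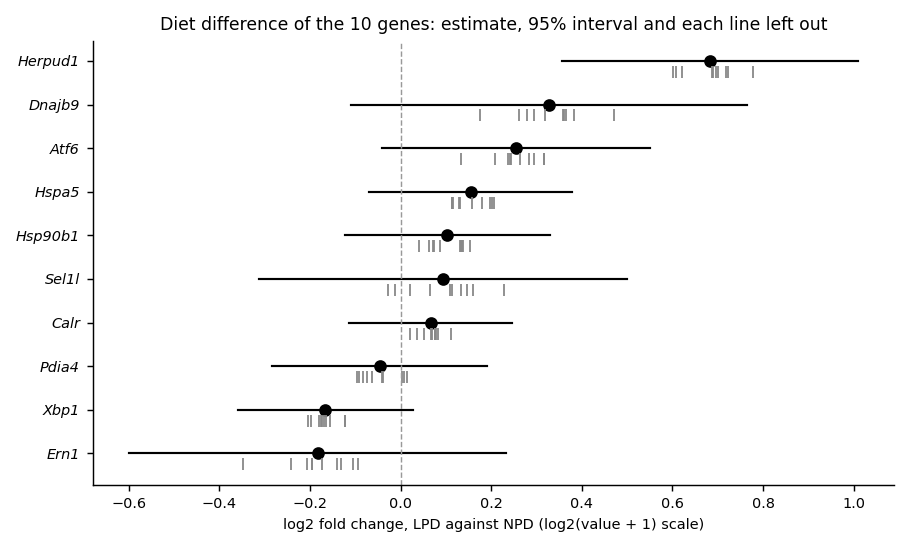
Log2 fold change of each gene between LPD and NPD lines (x axis, on the log2(value + 1) scale): points are the limma estimates over 5 and 5 lines, bars their 95% intervals, and grey ticks the estimates with each of the 10 lines left out. The interval of Herpud1 (0.36 to 1.01) lies above 0 and the other 9 intervals include 0.

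The luminal chaperones were abundant, and their differences between diets were within the spread between lines. Hspa5 (ENSMUSG00000026864, chr2:34771970-34777547 on the + strand) encodes BiP, the ER Hsp70 chaperone that binds nascent chains and holds the UPR sensors inactive, and is the standard readout of ER stress. Hspa5 stood at 9355, 8946, 8955, 7407 and 7338 in LPD lines 1, 4, 6, 20 and 40. The NPD lines 8, 15, 21, 36 and 51 held 6690, 7561, 6732, 8679 and 8056. LPD lines 1, 4 and 6 lay above every NPD line, whereas LPD lines 20 and 40 fell inside the NPD range. The log2 fold change of 0.15 (SE 0.10, 95% interval −0.07 to 0.38) was within the spread between lines (exact permutation p = 0.167), and the interval leaves out a rise of the size of the Herpud1 estimate.

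Hsp90b1 (ENSMUSG00000020048, chr10:86690209-86705509 on the − strand) encodes Grp94, the ER member of the Hsp90 family, which folds integrins and Toll-like receptors among other clients. Its values were 11453, 10426, 8885, 8806 and 8920 in LPD lines and 8047, 9914, 8606, 10320 and 8232 in NPD lines, in the same order of lines. LPD lines 1 and 4 were highest, and the remaining LPD lines lay between NPD lines. It differed by a log2 fold change of 0.10 (SE 0.10, 95% interval −0.12 to 0.33, exact permutation p = 0.381). Exons of Hsp90b1 overlap those of the pseudogene 1810014B01Rik on the other strand and of further non-coding genes, and whether the quantification used strand is not given in the sources used here, so part of these reads may be shared.

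Calr (ENSMUSG00000003814, chr8:84841850-84846934 on the − strand) encodes calreticulin, the luminal lectin that retains glycoproteins until they are folded and buffers calcium. Calr was the most even of the 10 genes: LPD lines held 12112, 10790.5, 10655, 11103 and 11056. The NPD lines held 9335, 10189, 10900.2, 12020.4 and 10887, so LPD line 1 lay above every NPD line, NPD lines 8 and 15 lay below every LPD line, and the other 7 lines overlapped. Its log2 fold change was 0.07 (SE 0.08, 95% interval −0.11 to 0.25, exact permutation p = 0.373). Pdia4 (ENSMUSG00000025823, chr6:47796141-47813430 on the − strand) encodes ERp72, a protein disulfide isomerase found in complexes with BiP. Pdia4 values were 2563, 2377, 2212, 2231 and 1975 in LPD lines and 2161, 2757, 2041, 2722 and 2106 in NPD lines. No LPD line exceeded NPD lines 15 and 36, the 2 highest. This gave a log2 fold change of −0.05 (SE 0.11, 95% interval −0.28 to 0.19, exact permutation p = 0.690), and its sign was not stable when lines were left out.

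Dnajb9 (ENSMUSG00000014905, chr12:44205559-44210326 on the − strand) encodes ERdj4, a BiP cochaperone that recruits misfolded proteins to ERAD and returns BiP to Ire1. The LPD lines held 378, 299, 228, 223 and 166, which included both the highest and the lowest of the 10 values. NPD lines held 173, 181, 218, 232 and 194, a narrow band that 3 LPD lines overlapped or undershot. LPD lines 1 and 4, the lines with most Herpud1, were the 2 above it. The log2 fold change was 0.33 (SE 0.20, 95% interval −0.11 to 0.76, exact permutation p = 0.198), and it moved from 0.18 without LPD line 1 to 0.47 without LPD line 40, where the unadjusted limma p fell to 0.0234.

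Sel1l (ENSMUSG00000020964, chr12:91806043-91849157 on the − strand) encodes the scaffold of the Hrd1 complex, the same ERAD ligase that Herpud1 joins. Its values were 786, 1219, 1273, 816 and 625.4 in LPD lines and 901, 887, 787, 1024 and 697 in NPD lines. LPD lines 4 and 6 were highest and LPD line 40 lowest of all 10, so the LPD lines enclosed the NPD lines. For Sel1l the log2 fold change was 0.09 (SE 0.19, 95% interval −0.31 to 0.50, exact permutation p = 0.690). Of these partners in 1 complex, Herpud1 had 5 of 5 LPD lines above every NPD line and Sel1l 2 of 5. Their 95% intervals overlapped, and the difference between the 2 genes was not tested.

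The sensors and transducers of the response had no common direction. Xbp1 (ENSMUSG00000020484, chr11:5520659-5525893 on the + strand) encodes the transcription factor made from the spliced mRNA and is itself induced by Atf6. Xbp1 stood at 1269, 1182, 1025, 1153 and 1188 in LPD lines and at 1344, 1291, 1171, 1471 and 1256 in NPD lines. LPD lines 6 and 20 lay below every NPD line and no LPD line lay above NPD lines 8, 15 and 36. The means were 1164 ± 88.7 and 1307 ± 111 (SD, n = 5 each), the reverse order of Herpud1. Its log2 fold change of −0.17 (SE 0.09, 95% interval −0.36 to 0.03) did not pass the test (limma unadjusted p = 0.0852, exact permutation p = 0.0556), and it lay between −0.20 and −0.11 under the alternatives.

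Atf6 (ENSMUSG00000026663, chr1:170704674-170867771 on the − strand) encodes the Golgi-cleaved sensor. Values were 1031, 968, 1185, 1610.1 and 1063 in LPD lines and 1152, 853, 935, 922 and 990 in NPD lines. LPD line 20 stood well above the other lines and the rest of the LPD lines lay between 968 and 1185, against 853 to 1152 in NPD lines. The log2 fold change of 0.25 (SE 0.14, 95% interval −0.04 to 0.55, exact permutation p = 0.103) was 0.13 without LPD line 20 and 0.41 with depth as a covariate, where its unadjusted limma p was 0.0214. Ern1 (ENSMUSG00000020715, chr11:106394650-106487852 on the − strand) encodes Ire1, the kinase and endonuclease that splices Xbp1. LPD lines held 162, 210.1, 320.4, 158 and 198 and NPD lines 222, 260, 215, 265 and 196. LPD line 6 was the highest of all 10 lines and LPD lines 1 and 20 the lowest. Ern1 had a log2 fold change of −0.18 (SE 0.19, 95% interval −0.60 to 0.23, exact permutation p = 0.357), and it was −0.35 without LPD line 6, where the unadjusted limma p was 0.0439. All of these genes but Herpud1 had Benjamini-Hochberg adjusted limma p-values between 0.994 and 0.996.

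Levels between genes were compared as mean normalized value per kilobase of the principal transcript. Calr had 4993 per kilobase, followed by Hsp90b1 with 3314, Hspa5 with 2171, Pdia4 with 965 and Xbp1 with 580. Herpud1 had 185, Atf6 148, Sel1l 143, Dnajb9 93.2 and Ern1 31.8. Calr, Hsp90b1 and Hspa5 were thus among the most highly expressed genes of these ESCs, at percentiles 98.4, 97.4 and 95.8 of the 13702 tested genes with a known length, whereas Ern1 stood at 25.3. Of the 9 steps between neighbours in this order, 7 held in 9 or 10 of the 10 lines (exact sign-flip permutation, adjusted p between 0.00293 and 0.00502 over the 9 steps). The order was taken from these same lines, so these p-values describe only how even it was between lines. They do not cover the choice of the principal transcript, whose length enters each level. Herpud1 exceeded Atf6 in 8 of 10 lines (exact sign-flip permutation p = 0.0449, adjusted 0.0505), and Atf6 exceeded Sel1l in 6 of 10 (exact sign-flip permutation p = 0.674), so these 3 genes were not separated beyond their spread. In NPD lines the level of Herpud1, 141 per kilobase, was close to those of Atf6 (134) and Sel1l (136), and in LPD lines it was 229 against 162 and 150.

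The residual SD of log2 values within diets was 0.11 for Calr and 0.12 for Xbp1, at percentiles 5.0 and 6.8 of all genes tested, and 0.17 for both Hspa5 and Hsp90b1. Herpud1 had 0.24 and Atf6 0.23, close to the median of 0.27 over all genes. Sel1l (0.34), Dnajb9 (0.34) and Ern1 (0.32) were the most variable of the 10. The Herpud1 fold change stood at percentile 98.2 of all log2 fold changes, that of Dnajb9 at 92.1 and that of Xbp1 at 19.9.

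The ratio of Herpud1 to each other gene was also taken within each line. These ratios were chosen after the values were seen and are given without a test. The log2 ratio of Herpud1 to Hspa5 averaged −4.25 in LPD and −4.77 in NPD lines, a difference of 0.53 (SE 0.13), and no LPD line reached down into the NPD range. The same held for its ratios to Hsp90b1 (0.58), Calr (0.62), Pdia4 (0.73) and Xbp1 (0.85). Because the diets do not overlap in Herpud1 itself, these separations are not further evidence. The diets overlapped for its ratios to Sel1l (0.59), Dnajb9 (0.36) and Ern1 (0.87), where 4 of 5 LPD lines exceeded the NPD range, and to Atf6 (0.43), where 3 of 5 did. Its ratio to Atf4, the transcription factor of the Perk branch, differed by 0.21 (SE 0.14), with 3 of 5 LPD lines above all NPD lines.

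To see whether these genes varied together between lines, log2 values were correlated over the 10 lines for the 45 pairs of genes and for each gene with Atf4, 55 pairs in all. The median Pearson r of the 45 pairs was 0.25, and 0.31 with the diet means subtracted, against 0.004 and 0.005 over all pairs of genes whose mean was 100 or more. Of the 45 pairs 27 had r above 0. No pair reached a Benjamini-Hochberg adjusted permutation p under 0.05 by Pearson's r or Spearman's rho (0 of 55), and 5 of the 45 had an unadjusted p under 0.05. The shares of all pairs of genes with r above 0 or with such a p were not taken. The counts of 27 and 5 are therefore not read as a result about these genes. A block of Hspa5, Hsp90b1, Calr, Pdia4 and Dnajb9 had positive r in every pair, whereas Atf6 had r below 0 or near 0 with each of them.

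**Figure D3:**
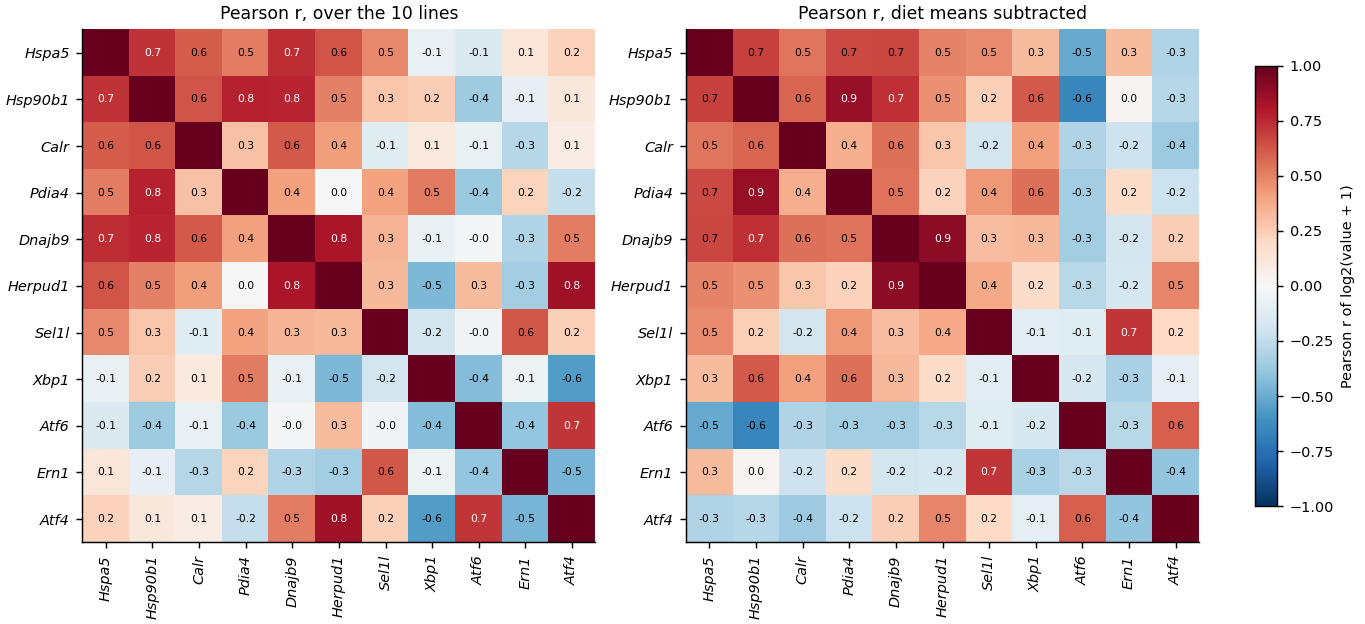
Pearson r of log2(value + 1) between pairs of the 10 genes and Atf4 over the 10 lines, as measured (left) and with each diet mean subtracted (right), from −1 (blue) to 1 (red). The chaperones and Dnajb9 form a red block in both panels, and Herpud1 with Atf4 goes from 0.84 to 0.49.

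The highest r among the 10 genes was that of Herpud1 with Dnajb9, 0.82 (permutation p = 0.00343, adjusted 0.0943), with a Spearman rho of 0.67 (permutation p = 0.0390). With diet means subtracted it was 0.89, but without the 2 lines farthest from the median of Dnajb9 it was 0.46, so it rested in part on LPD lines 1 and 4. Hsp90b1 and Pdia4 had r = 0.77 (permutation p = 0.0112, adjusted 0.105, rho 0.65, permutation p = 0.0498), which was 0.87 with diet means subtracted and 0.83 without the 2 farthest lines. Hspa5 correlated with Dnajb9 at 0.74 (permutation p = 0.0103, adjusted 0.105, rho 0.81, permutation p = 0.00736) and with Hsp90b1 at 0.72 (permutation p = 0.0223, adjusted 0.175, rho 0.71, permutation p = 0.0270), with 0.57 and 0.49 without the 2 farthest lines. For Hsp90b1 with Dnajb9 the r of 0.76 (permutation p = 0.00980, adjusted 0.105, rho 0.65, permutation p = 0.0495) was 0.29 without the 2 lines farthest from the median of Hsp90b1.

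Herpud1 also varied with Atf4 over the lines, with r = 0.84 (permutation p = 0.00268, adjusted 0.0943) and rho = 0.83 (permutation p = 0.00464). It was 0.85 without the 2 farthest lines and 0.49 with diet means subtracted, since both genes were higher in LPD lines. Atf6 and Atf4 had r = 0.72 (permutation p = 0.0114, adjusted 0.105, rho 0.72, permutation p = 0.0235), with 0.60 after subtracting diet means and 0.42 without the 2 farthest lines. Hspa5, by contrast, had r = 0.23 with Atf4 (permutation p = 0.514, adjusted 0.725, rho 0.22, permutation p = 0.539), and −0.30 with diet means subtracted. In 1 alternative, quantile normalization, 4 of the 45 pairs without Atf4 reached an adjusted permutation p under 0.05. The pairs with Atf4 were not counted there.

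**Figure D4:**
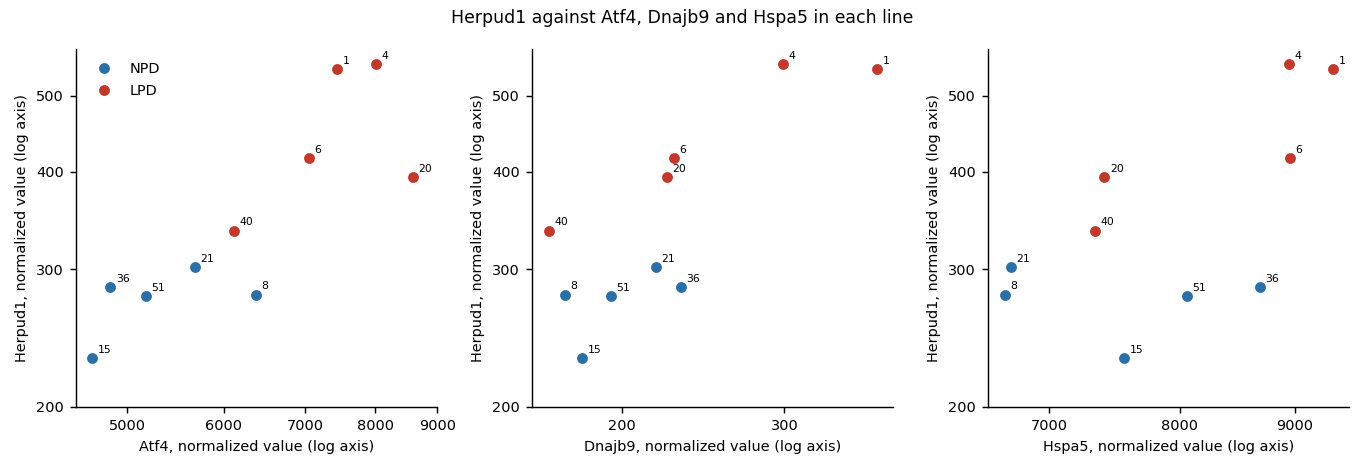
Normalized value of Herpud1 (y axis, log scale) against Atf4, Dnajb9 and Hspa5 (x axes, log scale) in the 5 LPD (red) and 5 NPD (blue) lines, with line numbers. Against Atf4 the lines lie along 1 band (r = 0.84), and against Dnajb9 LPD lines 1 and 4 stand out at the upper right. In every panel, that of Hspa5 included, all LPD lines lie above all NPD lines, because the diets do not overlap in Herpud1 itself.

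The genes most like each of 3 members over the 10 lines, among genes whose mean was 100 or more, were listed by r alone. For Herpud1 they were B3gnt5, Chac1 and Haus2, each with r = 0.96. With diet means subtracted these were 0.92, 0.92 and 0.88, and the mean of each of these genes was higher in LPD lines. For Hspa5 they were Id3 (0.91), Plppr3 (0.88) and Tmod3 (0.87), and for Xbp1 Cdc25b (0.93), St3gal2 (0.90) and Ssc4d (0.88).

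The rest of the ER system was described with 5 lists holding 112 tested genes that are not among the 10. Of these, 9 were higher in LPD lines at an unadjusted p under 0.05 and 0 were lower, against 2.84% and 2.18% of all genes tested, and 6 of the 9 belonged to the list of the Perk and Atf4 branch. Of the other 100 genes 3 were higher. No gene of these lists had an adjusted limma p under 0.1, and the smallest was 0.290.

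Of 28 further ER chaperones and foldases tested, 0 passed an unadjusted p of 0.05 in either direction, and their median log2 fold change was 0.04. Canx, the membrane lectin paired with calreticulin, had 9195 ± 1113 in LPD and 9018 ± 717 in NPD lines (SD, n = 5 each), and Pdia3, the isomerase that works with both lectins, 8889 ± 445 and 8578 ± 323. In ERAD, 1 of 26 genes was higher and 0 were lower, with a median of 0.07. The gene that passed was Derl2, a channel component of ERAD, with 546 ± 40.7 against 468 ± 40.7, a log2 fold change of 0.22 (SE 0.10, limma unadjusted p = 0.0464, adjusted 0.987). The p of Derl2 was under 0.05 in 8 of 22 alternatives. Vcp, the ATPase that pulls substrates from the membrane, and its cofactor Nploc4 had log2 fold changes of 0.004 and −0.02. Log2 fold changes in this list ran from −0.74 to 0.35.

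Among 17 tested sensors and transducers (1 of the 18 listed, Ern2, has no value here) 1 was higher and 0 were lower, with a median of −0.10. It was Creb3, a membrane-bound transcription factor related to Atf6 in its mode of activation, with 440.1 ± 140 against 278 ± 46.7, a log2 fold change of 0.62 (SE 0.21, limma unadjusted p = 0.0129, adjusted 0.839). Creb3 was highest in LPD line 6 (613), and without the 3 feeder-rich lines its log2 fold change was 0.38 and its unadjusted p no longer passed. Tmbim6, an ER membrane protein that restrains Ire1, had 0.15 (SE 0.09), and Mbtps1, the protease that cleaves Atf6, 0.01 (SE 0.08). For translocation into the ER and N-glycosylation, 1 of 29 genes was higher and 0 were lower, with a median of 0.06. That gene was Sec62, a subunit of the translocation machinery, with 1595 ± 169 against 1359 ± 132, a log2 fold change of 0.23 (SE 0.10, limma unadjusted p = 0.0355, adjusted 0.957), and its p was under 0.05 in 12 of 22 alternatives. Ssr2 and Ddost had log2 fold changes of 0.05 and 0.04.

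In the Perk and Atf4 list all 12 genes had a log2 fold change above 0, against 50.5% of all genes tested. Of the 12, 6 passed an unadjusted limma p of 0.05, against 5.02% of all genes tested, and the median was 0.39. Atf4 had 7444, 8006, 7058, 8594 and 6125 in LPD lines 1, 4, 6, 20 and 40 and 6376, 4678, 5681, 4840.5 and 5178 in NPD lines 8, 15, 21, 36 and 51. All LPD lines but line 40 lay above every NPD line. Its log2 fold change was 0.48 (SE 0.11, limma adjusted p = 0.435, exact permutation p = 0.0159). The study also singled out a transcript of Atf4 on these lines, so neither this difference nor that of the list around it is independent evidence. Atf3, a stress-induced factor downstream of Atf4, had 292 ± 146 against 63.5 ± 16.3, a log2 fold change of 2.03 (SE 0.38, limma adjusted p = 0.290), and Ppp1r15b, which directs dephosphorylation of eIF2alpha, 3369 ± 279 against 2787 ± 138, with 0.27 (SE 0.08, limma adjusted p = 0.665). For both genes the diets did not overlap, a separation seen on the higher side in 0.523% of all genes tested. Ddit3, the pro-apoptotic factor Chop, had 243 ± 30.4 against 196 ± 62.2, a log2 fold change of 0.35 (SE 0.19) that did not pass (exact permutation p = 0.127).

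**Figure D5:**
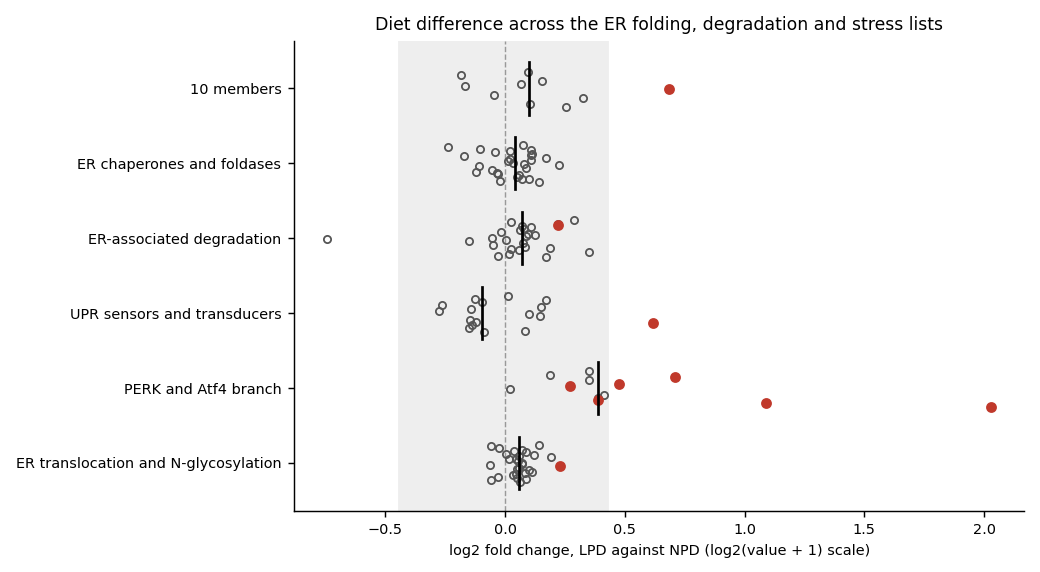
Log2 fold change between LPD and NPD lines (x axis, on the log2(value + 1) scale) of the 10 genes and of 5 lists of ER genes; filled red points have an unadjusted limma p under 0.05, open points do not, black bars are medians and the grey band holds the 5th to 95th percentile of all genes tested (−0.44 to 0.43). Herpud1 is the filled point of the top row (0.68), and 6 of 12 genes of the Perk and Atf4 list are filled. Of all genes tested 5.02% were under that limit.

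Markers of other cell types were set beside these results. Primitive endoderm is a secretory lineage of the early embryo, and the summed values of 12 of its markers were between 16055 and 48552 in LPD lines (median 30563) and between 13565 and 36572 in NPD lines (median 26725), a difference within the spread between lines (exact permutation p = 0.373). All 12 had a log2 fold change above 0, against 50.5% of all genes tested. An unadjusted limma p under 0.05 was reached by 0 of 12, against 5.02% of all genes tested. Foxa2 was at 0 in at least 1 NPD line. LPD line 1 had the highest sum and also the highest Hspa5, Hsp90b1, Calr and Dnajb9, whereas LPD line 40 had the next highest sum and the lowest Dnajb9, Sel1l and Pdia4. The median sum of the feeder markers was 543 in LPD and 1375 in NPD lines, a difference within the spread between lines (exact permutation p = 0.349). Of the 9 tested feeder genes 8 had a log2 fold change below 0 and 1 above, against 50.5% of all genes tested above 0. Among the 8 is Lum, which passed the filter on low values only through NPD line 15 (111, at most 1.39 in any other line). Its sign thus carries no information. The part of these cells in the values of the 10 genes was not tested.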

How the data were processed

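RNA sequencing of 10 ESC lines was used, 5 per diet. According to the study's methods the authors trimmed reads, quantified transcripts with Salmon against GRCm38 transcripts of Ensembl release 88 and tested them with sleuth (version 0.30.0 in the submitters' processing notes, which also name cutadapt). The deposited table holds a normalized signal per gene and line, an estimated count made comparable between lines by the authors. How transcripts were summed to genes is not given in the sources used here. Whole reads could not be recovered over all genes, since 68.6% to 75.1% of the low values were whole multiples of 1 read within a tolerance of 0.15, so no count model was used. In genes with 1 annotated transcript 93.4% to 99.7% were, and these gave the depth of each line.

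Values were transformed as log2(value + 1). The filter kept 14354 genes whose mean was 10 or more. They were compared between diets in limma 3.58.1 (R 4.3.3) by moderated linear models whose prior variance followed the mean, without covariates, and p-values were adjusted by Benjamini-Hochberg, and the 10 genes also by exact two-sided permutation over all assignments of 5 and 5 lines. Correlations used permutation with 100000 resamples (Python 3.11.15, scipy 1.17.1). Positions and transcript lengths came from GENCODE M21 (19891 of 20206 identifiers matched) and promoters from RefSeq. The named genes were all 10 members, from each list the 2 most abundant and, both ways, up to 2 of lowest p, Atf4, Ddit3 and the 3 genes most like Hspa5, Herpud1 and Xbp1. Members and lists were chosen with earlier results of these data known. The procedure was tested on simulated data, and the alternatives tried are given with the limits.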

Additional observations from a re-analysis of the deposited data

Results flagged for a closer look

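Among the 10 genes and the other named ER genes, 50 groups of 5 lines were examined for a line far from the rest of its diet, and 2 held one. Chance alone gives such a line in about 1 in 20 groups. Canx, the membrane lectin of the ER, was 7271 in LPD line 40, against 9489 to 10168 in the other 4 LPD lines. Ddit3, which encodes Chop, was 305 in NPD line 8, against 148 to 179 in the other 4 NPD lines, and it was the highest value of all 10 lines. Without NPD line 8 the log2 fold change of Ddit3 was 0.52.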

How the results depend on the processing

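Herpud1 kept its direction and an unadjusted p under 0.05 in 22 of 22 alternatives, with a log2 fold change from 0.54 to 0.78, and Xbp1 its direction. The number of the 10 genes at an unadjusted p under 0.05 was 1, 2 with depth as a covariate (with Atf6), and 1 to 2 with each line left out. Their count at an adjusted p under 0.1 was 0 to 1 with each line left out, 1 without LPD line 40. Over all genes that count was 0, 1 with array weights, 1 without LPD line 6 and NPD lines 8 and 15, and 0 to 40 with each line left out, 40 without LPD line 40, and 549 to 904 genes had an unadjusted p under 0.05. For the pathway lists 6 to 10 genes were higher and 0 to 1 lower with each line left out. Their medians ranged from 0.01 to 0.07 for chaperones, from 0.04 to 0.07 for ERAD, from −0.13 to −0.05 for sensors, from 0.34 to 0.52 for the Perk and Atf4 list and from 0.03 to 0.09 for translocation, and from 0.07 to 0.17 for the 10 genes. Of the 45 pairs among the 10 genes, 4 had an adjusted permutation p under 0.05 after quantile normalization. Their median r was between 0.08 and 0.32 with each line left out.

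Signs that turned belonged to genes with a log2 fold change near 0. With each line rescaled to the same total, Canx had −0.0119, Mbtps1 −0.0210 and Vcp −0.0304, and after quantile normalization −0.0211, −0.0167 and −0.0444. Array weights gave Pdia4 0.00323 and Vcp −0.0470. Depth as a covariate gave Sel1l −0.0821, Mbtps1 −0.0436 and Nploc4 0.0358. Without LPD line 4 and NPD line 15, Mbtps1 had −0.00546, Nploc4 0.00438 and Vcp −0.0205. Without LPD line 6 and NPD lines 8 and 15, an alternative chosen after seeing the data, Calr had −0.000305, Pdia4 0.00378, Ddost −0.0224 and Vcp −0.0618. With each line left out, Pdia4 ranged from −0.0951 to 0.0133, Sel1l from −0.0273 to 0.229, Canx from −0.0163 to 0.105, Ddost from −0.00581 to 0.0906, Mbtps1 from −0.0175 to 0.0496, Nploc4 from −0.0964 to 0.0556 and Vcp from −0.0409 to 0.0399. The cause was not tested.

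Of all genes at an unadjusted p under 0.05, 56.6% were higher in LPD lines as deposited, 40.2% with equal totals and 51.1% after quantile normalization, where the median of all genes moved by less than 0.1. No paired analysis was possible because the diets share no line numbers. In all, 3 LPD lines were shallower than every NPD line, and what this does to the precision of the less abundant genes was not measured.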
